A study of Mus musculus with 9 samples.

Results

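The complement genes examined were C1qa, C1qb, C1qc, C4b, C3, Cfb, Cfi, Serping1 and C3ar1, taken by gene name from a table of read counts for 54532 genes, and all 9 were found. They were measured by bulk RNA-Seq in neurosensory retina from 9 wild-type C57BL/6 mice at postnatal day 17. The 3 control mice were not exposed to high oxygen (treatment label Control+DMSO), and the labels do not say whether their eyes were injected. The 3 OIR mice underwent oxygen-induced retinopathy, in which pups kept in high oxygen lose central retinal vessels and their retina becomes ischemic on return to room air, and received vehicle (Hypoxia+DMSO). The 3 treated OIR mice had the same exposure and a single intraocular injection of 32-134D, an inhibitor of hypoxia-inducible factors, at postnatal day 12 (Hypoxia+32-134D, 70 ng, whereas the protocol gives the dose as a concentration of 70 ng/µl). Each group was sampled at 1 age, and each value describes a whole retina, so that fewer cells of a type and less RNA per cell cannot be told apart. Mice are named by group and by the number in their label.

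Complement is a cascade of proteins of innate immunity. In the classical pathway C1q binds a surface and leads to cleavage of C4 and then of C3, the alternative pathway amplifies C3 cleavage through factor B, and soluble inhibitors hold both in check. In the central nervous system C1q is made mostly by microglia and macrophages, whereas astrocytes and other glia are known sources of C3 and C4, and C1q and C3 mark synapses for removal during development.

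The C1q chains lie side by side on the reverse strand of chromosome 4 (GRCm38), with C1qb at chr4:136880129-136886187, C1qc at chr4:136889804-136893065 and C1qa at chr4:136895917-136898803. C4b (chr17:34728380-34743882), Cfb (chr17:34856374-34862518) and C3 (chr17:57203970-57228136) are on the reverse strand of chromosome 17. Serping1 is at chr2:84765387-84775444 and C3ar1 at chr6:122847138-122856161, both on the reverse strand, and Cfi is at chr3:129835884-129875332 on the forward strand. Some reads of these genes are hard to assign. Of the 50-base stretches of the C4b transcript, 35.2% also occur in C4a, its near-identical neighbor, so C4b counts are uncertain. Mir6978 lies within C3, and Gm20547 and Mir6972 overlap Cfb, each on the same strand.

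Because the C1q chains had nearly the same pattern across the 9 mice, sequence upstream of their start sites is shown. RefSeq promoters (GRCm38.p6) were found for C1qb, C1qc, C3ar1 and C3, and the 250 bases before each start were searched on both strands for GAGGAA, a core bound by PU.1, the myeloid transcription factor. The letters occur 30 bases before the RefSeq start of C1qb and 193 bases before that of C1qc. The C1qc window is chr4:136892915-136893164, so its RefSeq start lies inside the annotated gene given above. The C1qb stretch is chr4:136886201-136886450 and the C1qc stretch, limited to bases outside the annotated gene, is chr4:136893066-136893164. Both are printed 5′ to 3′ on the reverse strand with the match in capitals, which in C1qc reads as its reverse complement.
C1qb: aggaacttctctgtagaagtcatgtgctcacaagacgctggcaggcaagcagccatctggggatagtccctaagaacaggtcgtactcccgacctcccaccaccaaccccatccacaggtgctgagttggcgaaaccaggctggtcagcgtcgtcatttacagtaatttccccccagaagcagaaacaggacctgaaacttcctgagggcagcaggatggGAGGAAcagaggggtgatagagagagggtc
C1qc: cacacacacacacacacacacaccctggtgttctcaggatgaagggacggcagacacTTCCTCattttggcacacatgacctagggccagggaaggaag
GAGGAA is common, being present in 23.3% of 32851 RefSeq promoters of the same length. The letters ACGTG and GCGTG (hypoxia response cores, in 16.6% and 28.2% of promoters) and TTCNNNGAA (STAT factors, 7.02%) were not in the windows of these 4 genes. A match is a description of sequence and not a binding site.

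Libraries held 16864135 to 27213184 counts for control mice, 18556723 to 21071371 for OIR mice and 16028731 to 18560178 for treated mice. The retinal label held, since all 8 photoreceptor markers and all 8 Müller glia markers were detected in every mouse. A pair of mice stood apart in tissue markers. In treated OIR mouse 2 the 9 lens genes summed to 100599 CPM (counts scaled to an equal library total) against at most 733 in the other mice, and crystallins made up 15.8% of its counts. In control mouse 1 the 5 fibroblast genes summed to 885 CPM against at most 216 elsewhere. Below, fold changes that rest on these mice are given with and without them, or with a range over mice left out. Correlations and marker levels use all 9 mice.

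Per kilobase of transcript, C1qa and C1qb had the highest means of the complement genes in control and OIR mice. In control mice the mean was 51.6 ± 44.0 CPM per kb for C1qa and 53.9 ± 46.0 for C1qb (SD, n = 3). C1qc followed at 26.2 ± 23.8, then Serping1 at 12.9 ± 7.93 and C4b at 9.99 ± 7.71 CPM per kb. C3ar1 (2.77 ± 3.21), C3 (1.58 ± 0.963) and Cfi (1.21 ± 0.482) were the least abundant of the 8 genes with enough reads to test. Neighbors in this order differed by less than their spread. In OIR mice the mean of Serping1 was 47.9 ± 31.3 CPM per kb, above C1qc at 32.7 ± 13.7. In treated OIR mice the mean of Serping1, at 27.2 ± 32.4, was above that of C1qa (24.2 ± 8.29), by less than its spread.

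The control mice themselves differed widely. Across the 3 control mice the highest CPM exceeded the lowest 7.55-fold for C1qa, 10.1-fold for C4b, 4.71-fold for C3 and 22.5-fold for C3ar1, the receptor of the C3a fragment, but 2.15-fold for Cfi. Control mouse 7 was the lowest of all 9 mice for 7 of the 8 tested genes. Control mouse 1 was the highest of all 9 for the 3 C1q chains.

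**Figure D1:**
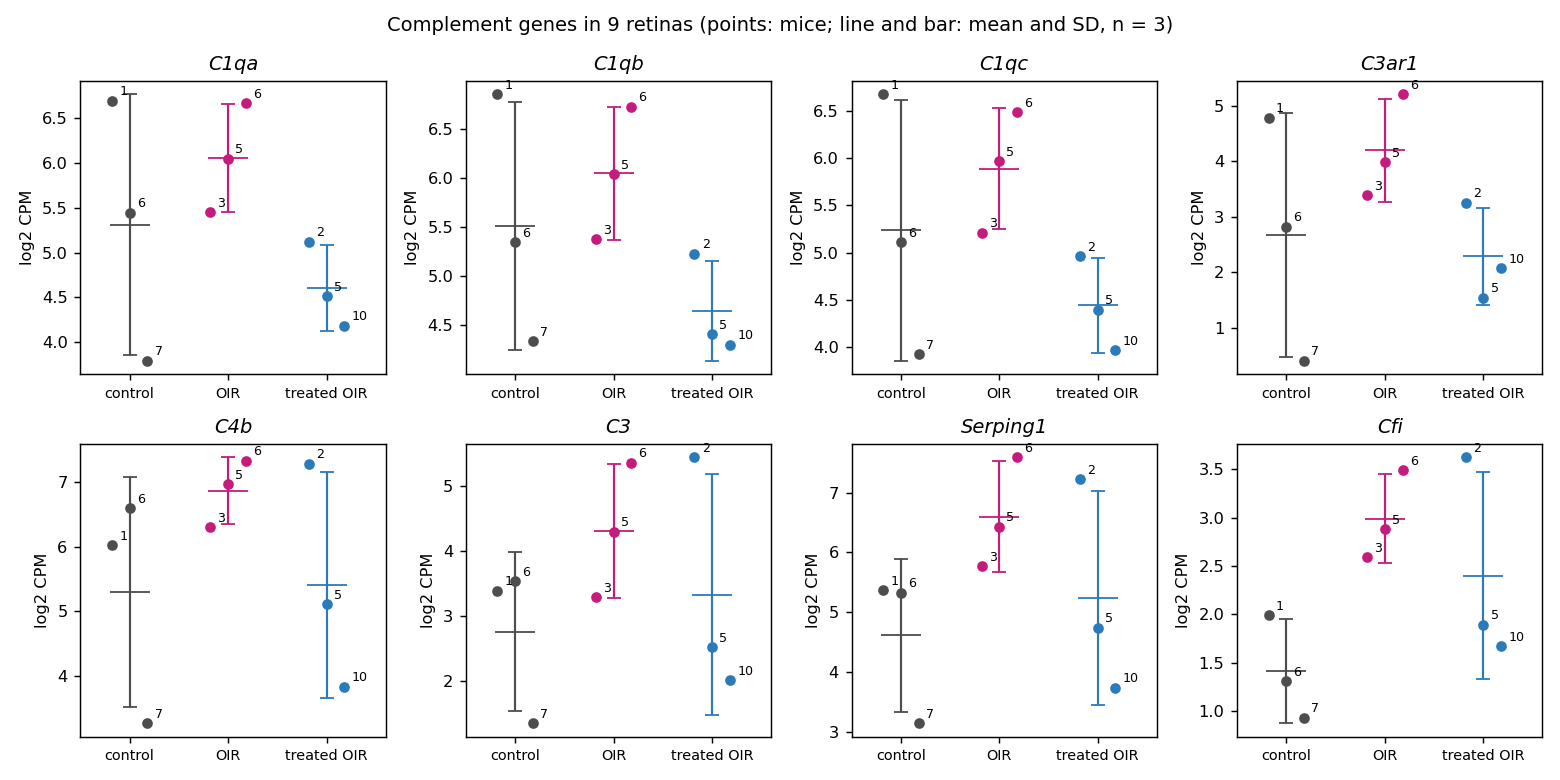
Log2 CPM (vertical axis) of the 8 tested complement genes in each mouse, grouped as control, OIR and treated OIR (horizontal axis), with points for mice labeled by number and the line and bar for the mean and SD (n = 3). The 3 OIR mice lie above every control mouse for Cfi and Serping1, and the 3 treated OIR mice lie below every OIR mouse for C1qa, C1qb, C1qc and C3ar1.

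The first comparison addressed the ischemic retina, OIR against control. All 8 tested genes had a higher fitted level in OIR mice, against 53.5% of all genes, with a median log2 fold change of 0.95 beside 0.03 for all 17540 genes tested. The regulators Serping1 and Cfi and the central component C3 had the largest estimates. However, no member passed an adjusted p of 0.05 (edgeR quasi-likelihood test, Benjamini-Hochberg adjustment), where 0.941% of all genes did. At an unadjusted p below 0.05, 1 of the 8 (Cfi) was higher, against 11.1% of all genes. DESeq2 and limma-voom on the same 9 mice each called 1 of the 8, Cfi, where they called 11.3% and 13.1% of all genes.

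C1qa, the A chain of the recognition molecule, had log2 CPM of 6.70, 5.45 and 3.79 in control mice 1, 6 and 7, compared with 5.45, 6.05 and 6.67 in OIR mice 3, 5 and 6. The OIR mice all lay within the span of the control mice. The fitted log2 fold change was 0.39 (SE 0.60, edgeR adjusted p = 0.737). C1qb and C1qc, the other chains of the same protein, followed the same order, with log2 fold changes of 0.27 (SE 0.58) and 0.31 (SE 0.61). These estimates depend on single mice. Without control mouse 1 they were 1.30, 1.22 and 1.35 for C1qa, C1qb and C1qc, and without control mouse 7 they were −0.062, −0.14 and −0.12. Without control mouse 1, every OIR mouse lay above both remaining control mice for 6 of the 8 tested genes, against 23.8% of all genes, and 5 of the 8 were higher at an unadjusted p below 0.05, against 11.0%.

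C4b, the substrate cleaved next in the classical pathway, had log2 CPM of 6.02, 6.59 and 3.27 in control and 6.30, 6.96 and 7.32 in OIR mice. The groups overlapped because OIR mouse 3 lay below control mouse 6. The log2 fold change was 1.09 (SE 0.90, edgeR adjusted p = 0.497). C3, on which the pathways converge, had log2 CPM of 3.39, 3.54 and 1.35 in control and 3.30, 4.30 and 5.36 in OIR mice. Again OIR mouse 3 lay within the control span, and the log2 fold change was 1.52 (SE 0.94, adjusted p = 0.360).

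Cfb, the factor B gene of the alternative pathway, was below the filter on low counts and was not tested. All control mice had 0 counts. OIR mice 3, 5 and 6 had 0, 6 and 11, whereas treated OIR mice 2, 5 and 10 had 0, 3 and 2. Pooled over the OIR mice, its level was 6.05-fold the control floor of 3 counts over the group, and 3.29-fold that floor without OIR mouse 6, which held 11 of the 17 counts. In treated OIR mice, with 5 counts in all, it was 2.01-fold the same floor, and a rise over control is not established. The floor covers the counting error of the control mice alone, so these ratios are not lower limits, and OIR mouse 3 and treated OIR mouse 2 held no read.

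Of the 8 tested genes, only the regulators Cfi and Serping1 showed no overlap between control and OIR mice. Cfi, the protease that degrades C3b and C4b, had log2 CPM of 1.99, 1.31 and 0.93 in control and 2.59, 2.88 and 3.49 in OIR mice, with every OIR mouse above every control mouse. The log2 fold change was 1.58 (SE 0.55), about 2.99-fold, with an unadjusted p of 0.0185 and an edgeR adjusted p of 0.136. In 6 of 21 alternative analyses Cfi passed an adjusted p of 0.05, with a range of 0.00085 to 0.340. Leaving out treated OIR mouse 2, which is in neither group but shares the estimate of the spread, gave 0.0214, in a fit that called 12.5% of all genes. No tested complement gene kept an unadjusted p below 0.05 without control mouse 6, control mouse 7 or OIR mouse 6.

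Serping1, which encodes the C1 inhibitor, had log2 CPM of 5.37, 5.33 and 3.14 in control and 5.77, 6.44 and 7.60 in OIR mice. Its groups did not overlap either. The log2 fold change was 1.89 (SE 0.91, edgeR adjusted p = 0.246). Cfi and Serping1 were thus 2 of 8 tested genes higher without overlap, against 15.9% of all genes tested. C3ar1 had log2 CPM of 4.79, 2.83 and 0.41 in control and 3.40, 3.99 and 5.21 in OIR mice, with overlap and a log2 fold change of 0.81 (SE 0.90, adjusted p = 0.627). Without control mouse 1 the C3ar1 value was 2.34 (adjusted p = 0.174).

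**Figure D2:**
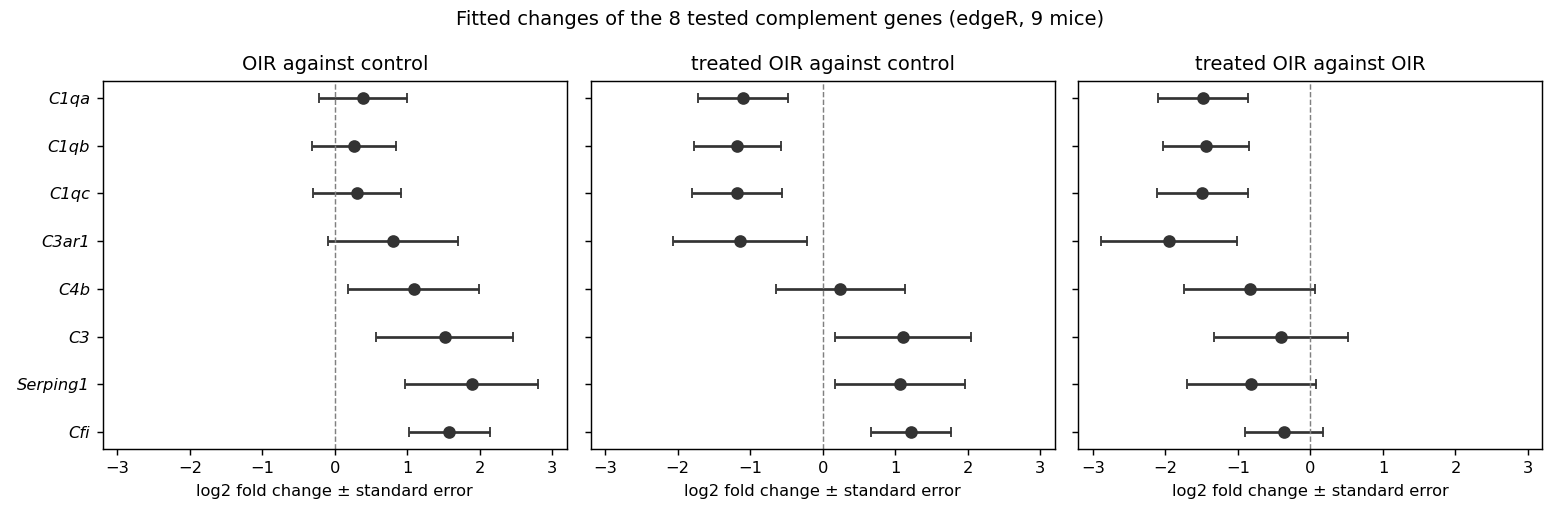
Fitted log2 fold change (horizontal axis, points, with bars for ± standard error) of the 8 tested complement genes in OIR against control, treated OIR against control and treated OIR against OIR. All 8 points are above 0 in the first panel and below 0 in the last, and in the middle panel the C1q chains and C3ar1 lie below 0 and the other 4 genes above it.

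The effect of 32-134D was addressed by treated OIR against OIR, which uses the same OIR mice as the first comparison, so that their values enter both with opposite sign. All 8 tested genes had a lower fitted level with treatment, against 48.7% of all genes, and the median log2 fold change was −1.14 beside 0.01 for all genes. The 3 C1q chains and C3ar1 had the most negative estimates. Adjusted p was 0.9998 for each of the 8 genes in edgeR, where 0.0% of all genes passed. Unadjusted p was below 0.05 for 3 of the 8 (the C1q chains), against 2.3% of all genes in the same direction. It was so for 0 of 8 when OIR mouse 5, OIR mouse 6, treated OIR mouse 5 or treated OIR mouse 10 was left out. The chains had r of 0.98 to 0.99 over the 9 mice, so the 3 count nearly as 1. Other counts of members also hold genes that move together. DESeq2 and limma-voom on all 9 mice also called 0 members, whereas DESeq2 on these 6 mice alone called C1qa (adjusted p = 0.0204) and C1qc (adjusted p = 0.0274), where it called 0.431% of all genes.

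In treated OIR mice 2, 5 and 10 the log2 CPM of C1qa was 5.12, 4.51 and 4.18, each below the lowest OIR mouse at 5.45. The log2 fold change was −1.49 (SE 0.62), or 0.356 of the OIR level, with an unadjusted p of 0.0396. C1qb had 5.23, 4.41 and 4.30 and C1qc 4.96, 4.39 and 3.96, with log2 fold changes of −1.44 (SE 0.60) and −1.49 (SE 0.62). C3ar1 had 3.26, 1.55 and 2.07, again all below the OIR mice, with a log2 fold change of −1.95 (SE 0.94, unadjusted p = 0.0679 in edgeR). These 4 genes, which move together across mice, were lower without overlap, against 5.39% of all genes tested.

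The other components and regulators behaved differently in treated OIR mouse 2. The log2 CPM of C4b was 7.27 in that mouse but 5.11 and 3.84 in treated OIR mice 5 and 10. Serping1 had 7.23 against 4.74 and 3.74, C3 had 5.45 against 2.52 and 2.02, and Cfi had 3.63 against 1.90 and 1.67. In mouse 2 each of these genes lay within or above the OIR range, and C3 and Cfi were the highest of all 9 mice. With all 3 treated mice the log2 fold changes were −0.84 (SE 0.90) for C4b, −0.82 (SE 0.89) for Serping1, −0.41 (SE 0.92) for C3 and −0.37 (SE 0.54) for Cfi.

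Mouse 2 is the one with lens RNA, and the part of that RNA in these values was not tested. In treated OIR mice 5 and 10 all 8 tested genes lay below every OIR mouse, a pattern found in 17.1% of all genes. Without mouse 2 the log2 fold changes against OIR were −2.29 for C4b, −2.46 for Serping1, −2.26 for C3, −1.25 for Cfi, −1.76 for C1qa and −2.57 for C3ar1. All 8 then had an unadjusted p below 0.05, against 4.69% of all genes in that direction, but none had an adjusted p below 0.05 in edgeR (lowest 0.221).

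Treated OIR against control, which shares mice with both other comparisons, showed no common direction. The C1q chains and C3ar1 had lower fitted levels than control, with log2 fold changes of −1.10 (SE 0.62) for C1qa, −1.18 (SE 0.59) for C1qb, −1.18 (SE 0.62) for C1qc and −1.14 (SE 0.93) for C3ar1. C4b (0.25, SE 0.90), Serping1 (1.07, SE 0.90), C3 (1.11, SE 0.94) and Cfi (1.21, SE 0.55) had higher ones, so that 4 of 8 were above 0, against 51.4% of all genes. For 0 of 8 genes was the adjusted p below 0.05 in edgeR, against 0.0228% of all genes, and the same held in DESeq2 and limma-voom. None had an unadjusted p below 0.05, against 18.6% of all genes, and in none did the groups lie without overlap, against 12.8% higher and 12.2% lower of all genes. Without treated OIR mouse 2, C4b (−1.24), C3 (−0.78) and Serping1 (−0.60) were also below 0. When any 1 mouse was left out, the values ranged from −1.55 to −0.19 for C1qa and from −1.58 to −0.22 for C1qb. For C1qc they ranged from −1.61 to −0.14, and for C3ar1 from −1.81 to 0.39, the last without control mouse 1. The size of the difference from control for these 4 genes thus depends on single mice.

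Across mice the genes formed 2 patterns, which were not sharply separate. The C1q chains moved almost as 1 gene, with Pearson's r of log2 CPM over the 9 mice of 0.98 to 0.99, and C3ar1 followed them (0.94 to 0.97). C4b, C3 and Serping1 formed the other, with r of 0.94 for C4b and C3, 0.95 for C4b and Serping1 and 0.98 for C3 and Serping1. Cfi was nearest to Serping1 (0.92). Between the patterns, C1qa had r of 0.79 with C4b, 0.75 with Serping1, 0.71 with C3 and 0.56 with Cfi. C3ar1 had 0.81 with C4b, 0.81 with Serping1, 0.78 with C3 and 0.69 with Cfi. Within the second pattern Cfi and C4b had 0.78. No correlation is given without control mouse 1 or treated OIR mouse 2. These 9 points include the differences between groups and share each library's composition, so the correlations are descriptions.

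Which cells carry these transcripts was approached through marker lists. The 10 genes of the macrophage and microglia list (among them Aif1, Tyrobp, Trem2 and Cd68) summed to between 65.6 and 413 CPM among control mice, between 160 and 392 among OIR mice and between 74.4 and 124 with treatment. In treated OIR against OIR, 7 of the 10 were lower without overlap, against 5.39% of all genes, and 6 were lower at an unadjusted p below 0.05, against 2.3%, with none passing the adjusted threshold in edgeR. Control mouse 1 was highest and control mouse 7 lowest in this sum, as for C1qa. No gene of the list was at 0 in any mouse.

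The C1q level kept nearly a fixed distance from this list. The mean log2 CPM of the 3 C1q chains ranged from 4.02 to 6.74, a span of 2.73, while its difference from the mean of the 10 list genes ranged only from 1.88 to 2.11, a span of 0.23. Control mice had a mean difference of 2.02 ± 0.092, OIR mice of 1.89 ± 0.012 and treated mice of 1.96 ± 0.052 (SD, n = 3). Against the 10 resident microglia genes, which include P2ry12, Tmem119 and Cx3cr1, the distance was not fixed. Control mice had 2.92, 1.92 and 1.41, compared with 1.97, 2.64 and 3.10 for OIR and 2.25, 1.51 and 1.15 for treated mice. Thus, C1q varied more than the mean of the resident list, which itself spanned 1.22 on the log2 scale. That mean joins genes of opposite direction. In OIR against control Cx3cr1 was higher without overlap (0.70, SE 0.25) and Tmem119 lower (−1.01, SE 0.26), or 1 of 10 each way, against 15.9% and 17.2% of all genes. In treated OIR against OIR, 5 of the 10 were lower without overlap, against 5.39% of all genes, and 0 were higher. At an unadjusted p below 0.05, 4 were lower, against 2.3%, and none passed the adjusted threshold in edgeR. Siglech, Sall1 and Olfml3 had estimates above 0 in that comparison. In treated OIR mouse 2, Olfml3 had 118 CPM against at most 40.7 in the other mice, and Sall1 17.3 against at most 5.41. The part of cell number in the C1q values was not tested.

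**Figure D3:**
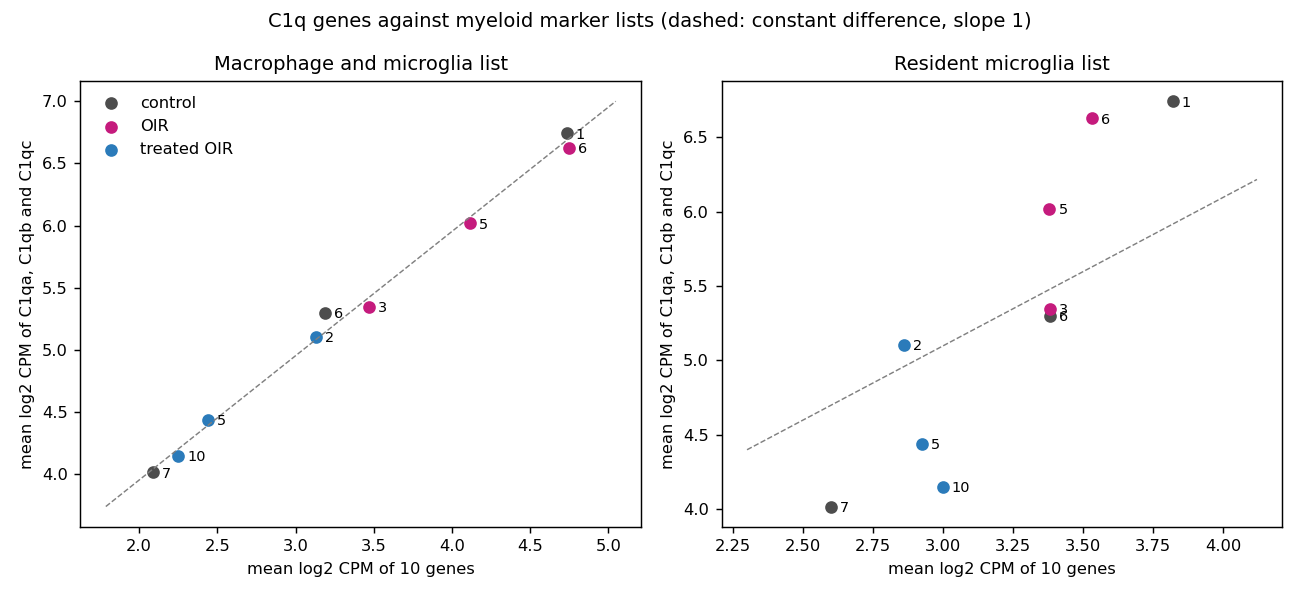
Mean log2 CPM of C1qa, C1qb and C1qc (vertical axis) against the mean log2 CPM of 10 macrophage and microglia genes (left) or 10 resident microglia genes (right) in each of 9 mice, labeled by number and colored by group, with a dashed line of slope 1 at the mean difference. On the left the differences lie between 1.88 and 2.11, and on the right between 1.15 and 3.10.

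C4b and C1q did not keep a fixed ratio. The log2 CPM of C4b minus the C1q mean was 0.95, 0.94 and 0.69 in OIR mice. It was −0.72, 1.29 and −0.75 in control mice, whereas treated mice had 2.17, 0.67 and −0.31. The OIR mice were alike, and treated OIR mouse 2 was the highest of the 9. The 7 genes of the astrocyte and reactive glia list summed to between 335 and 1225 CPM among control mice, between 978 and 2507 among OIR mice and between 540 and 3415 with treatment, with mouse 2 at the top of the range and no gene at 0 in any mouse. Over the 9 mice Gfap, the intermediate filament of reactive glia, had r of 0.90 with C4b, 0.94 with C3, 0.98 with Serping1 and 0.92 with Cfi. With the other pattern it had 0.78 for C1qa, 0.72 for C1qb, 0.75 for C1qc and 0.84 for C3ar1. The part of glial reactivity in these values was not tested.

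Summed markers of 2 other cell types also differed between the groups. The 8 Müller glia genes summed to between 6633 and 7345 CPM among control mice, between 8125 and 10424 among OIR mice and between 4761 and 6613 with treatment, with no gene at 0 in any mouse. Apoe alone had between 1631 and 2954 CPM among control mice and between 2948 and 4861 among OIR mice. In OIR against control 2 of the 8 (Slc1a3 and Sox9) were higher without overlap, against 15.9% of all genes. Slc1a3, a glutamate transporter, rose (log2 fold change 0.95, SE 0.16, edgeR adjusted p = 0.0447). The list did not move together, with log2 fold changes of 0.75 for Apoe, 0.04 for Glul and −0.28 for Rlbp1. In treated OIR mice Slc1a3 and Sox9 stayed above control without overlap, or 2 of the 8 against 12.8% of all genes, and 1 (Kcnj10) lay below, against 12.2%. Treated OIR mice lay below OIR mice without overlap for 3 of the 8, against 5.39% of all genes. The 10 blood leukocyte genes summed to between 0.258 and 3.60 CPM among control mice, between 5.03 and 10.9 among OIR mice and between 0.981 and 3.93 with treatment. From 3 to 8 of the 10 were at 0 in each mouse, and Cd3e, a T cell marker, was at 0 in 7 of 9 mice. Only 4 leukocyte genes were tested, and these passed the filter on low counts only with their reads in OIR mice. A count of them higher in OIR than in control, or lower with treatment, is favored by that filter and is not given. The part of these cells in the complement values was not tested.

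Genes with the most similar pattern were sought among 13970 tested genes over the 9 mice. For the C1q mean they included Ptpn6 (r = 0.991), Laptm5 (0.990), P2rx4 (0.986) and Fcer1g (0.978). Laptm5 and Fcer1g are in the macrophage and microglia list. For C3 they were Irf1 (0.985), Pcolce (0.984), A2m (0.980), Rab3il1 (0.977) and Lif (0.977). Irf1 encodes an interferon-regulated transcription factor and Lif a cytokine. For C4b they were Marveld3 (0.961), Fancc (0.959), Ror2 (0.952), Lamb2 (0.948) and Gm10030 (0.946).

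**Figure D4:**
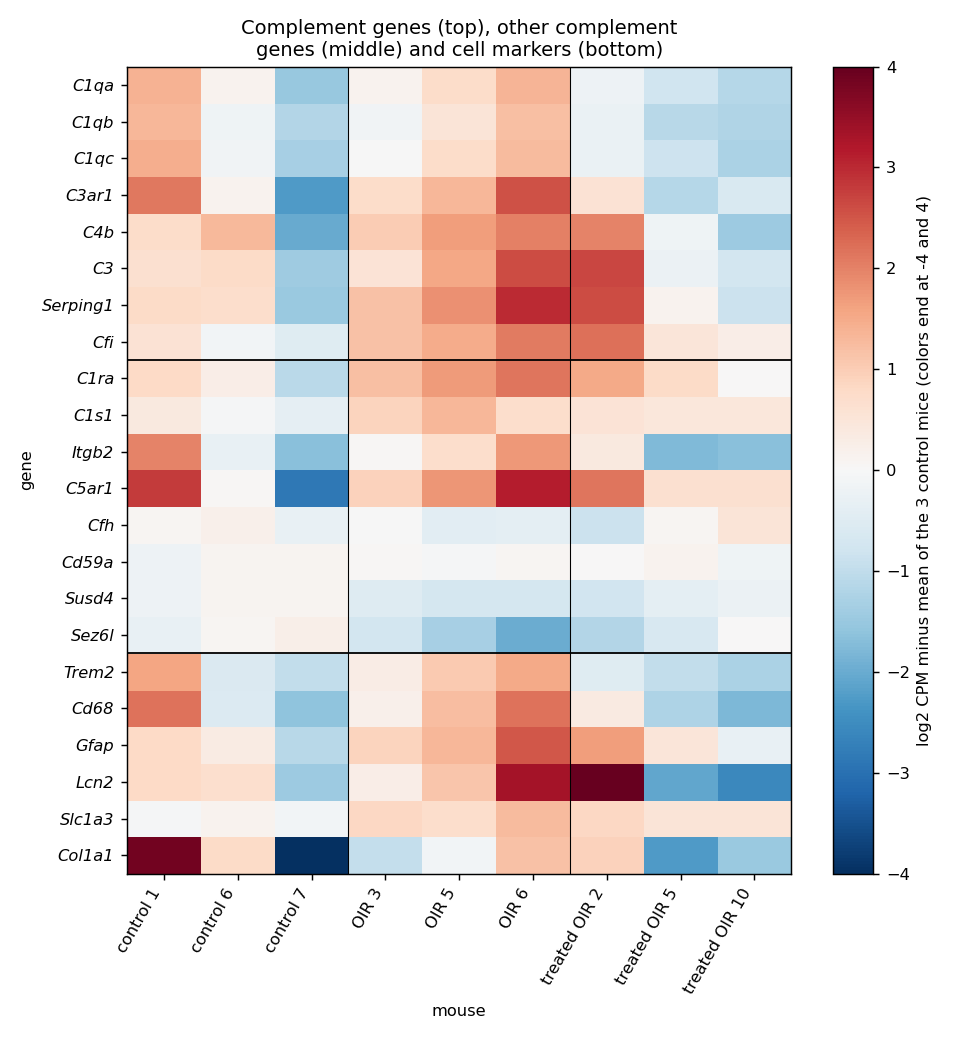
Log2 CPM minus the mean of the 3 control mice (color, from −4 to 4) for the 8 tested complement genes, 8 other complement genes and 6 cell markers (rows, the last 14 picked for display with values known) in each mouse (columns). OIR mouse 6 and treated OIR mouse 2 are red for C4b, C3, Serping1 and Cfi, while treated OIR mouse 2 is not red for the C1q chains.

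The rest of the pathway comprised 49 other complement genes, of which 32 had enough reads to test. None passed an adjusted p of 0.05 in edgeR in any of the 3 comparisons. In OIR against control 3 were higher and 4 lower at an unadjusted p below 0.05, against 11.1% and 12.7% of all genes. Of the 32, 6 were higher and 6 lower without overlap, near the 15.9% and 17.2% of all genes. C1ra, the protease partner of C1q, had log2 CPM of 2.07, 1.52 and 0.18 in control and 2.46, 2.95 and 3.39 in OIR mice. Every OIR mouse was above every control mouse, with a log2 fold change of 1.55 (SE 0.53, edgeR adjusted p = 0.129). In the lectin pathway Masp2 (2.32, SE 0.98) and Fcna (2.10, SE 1.07) were also higher without overlap, at log2 CPM near or below 0. Masp2 had 3 counts in OIR mouse 3 and 4 in control mouse 1, so its lack of overlap rests on library scaling. Mbl1, Mbl2, Fcnb and Colec10 were at 0 counts in every mouse.

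In the complement regulators 6 of 15 tested genes were lower in OIR than in control without overlap, against 17.2% of all genes. All the lower genes of the wider pathway were in this list, and the pathway as a whole was near the share of all genes. These 6 were Csmd1, Csmd3, Susd4, Sez6, Sez6l and Sez6l2, of which Sez6l was named by rule and the others after their values were seen. Csmd2 overlapped, with a log2 fold change of −0.21. Clu (0.50) and Cr1l (0.53) were higher without overlap, or 2 of 15 against 15.9% of all genes. Sez6l had log2 CPM of 5.75, 6.14 and 6.28 in control mice, compared with 5.32, 4.71 and 4.08 in OIR and 4.88, 5.42 and 6.06 in treated mice. Its log2 fold change was −1.29 (SE 0.35, edgeR adjusted p = 0.0896) in OIR against control and 0.75 (SE 0.35, adjusted p = 0.9998) in treated OIR against OIR. The other lower genes changed less with treatment, from −0.15 (Sez6) and −0.06 (Sez6l2) to 0.19 (Susd4). Susd4, Sez6 and Sez6l2 stayed below control without overlap in treated mice, or 3 of 15 against 12.2% of all genes. Of the 7 terminal pathway genes, 6 had at most 4 counts in any mouse, and only C8g was tested.

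The labels give no sex, and Xist and Y-linked reads marked 4 mice as female, namely control mouse 1, OIR mouse 3 and mice 2 and 5 of the treated group. Within males (2 control and 2 OIR mice) the difference in mean log2 CPM between OIR and control was 1.74 for C1qa, 2.38 for C3, 2.07 for Cfi and 2.78 for Serping1. Between the 1 female control mouse and the 1 female OIR mouse it was −1.24, −0.10, 0.60 and 0.40. With sex as a covariate no gene of the 17540 passed the adjusted threshold in OIR against control. The female control is also the mouse with fibroblast genes, so that sex and that mouse cannot be told apart.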

How the data were processed

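The authors deposited read counts per gene, with whole-number values and no normalization; the submitters' processing notes name CASAVA and HISAT. The counting tool, annotation release and strand setting are not given in the sources used here. Coordinates in the table match GRCm38, since 98.33% of 54409 gene identifiers shared with GENCODE M21 had the same position. Depth was 16028731 to 27213184 counts per mouse, and 0 columns of other samples were present. Members, gene lists and tests were chosen with earlier results of these data known.

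Genes were filtered with filterByExpr, leaving 17540, and fitted over all 9 mice with TMM normalization and the quasi-likelihood test of edgeR 4.0.16 in R 4.3.3 (adjusted p below 0.05). Per-mouse log2 CPM used a prior count of 2. Fitted fold changes compare mean levels on the count scale, so they can differ from differences of mean log2 CPM. The labels do not say whether samples are separate litters, so p-values measure the spread between these mice. Alternatives were DESeq2 1.42.0, limma-voom (limma 3.58.1), fits of 2 groups, other normalizations and filters, sex as a covariate, crystallin genes left out and each mouse left out; leaving out control mouse 1 and treated OIR mouse 2 together and the sex interaction were added after seeing the data. The tests were tried on simulated counts.

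Besides the 9 members, other complement genes were named where they passed the adjusted threshold in any comparison, or if they differed by more than 1 on the log2 scale with no overlap of OIR and control mice. For the C1q mean, C4b and C3 the 5 genes with the highest Pearson's r were named, from those with mean log2 CPM of at least 1. A result of this rule is not reported here.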

Additional observations from a re-analysis of the deposited data

Results flagged for a closer look

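For 5 genes the mice of each sex differed in opposite directions between OIR and control, with every OIR mouse of one sex below and of the other above the control mice of that sex. The fitted difference in log2 fold change, female minus male, was −2.79 for C1qa, −2.97 for C1qb, −3.09 for C1qc, −2.20 for C3 and −4.06 for C3ar1. It was −1.14 for C4b, −2.11 for Serping1 and −1.52 for Cfi, whose directions were alike. The 5 genes were picked for their opposite directions, so no p is given for them, and the difference was not tested apart from that choice. The female side rests on 1 control and 1 OIR mouse, which cannot overlap, and for C3 their difference was only −0.096. The share of all genes with such opposite directions was not counted, so the number of genes here has no background beside it. The C1q chains among them moved almost as 1 gene.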

How the results depend on the processing

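No paired analysis was possible because control and OIR mice share only the number 6, and OIR and treated OIR mice only the number 5. The number of genes called depended on the analysis, and the cause was not tested. In OIR against control edgeR on 9 mice called 165 genes, against 1977 with DESeq2 on 9 mice, 2683 with DESeq2 and 1771 with edgeR on the 2 groups, 2305 with limma-voom, 37 with total counts, 532 with no filter, 376 with 10 counts in every mouse, 0 with sex as a covariate and 2351 without control mouse 1 and treated OIR mouse 2. Leaving out 1 mouse gave 0 to 2272, the highest without treated OIR mouse 2. In treated OIR against control 4 genes became 842 (DESeq2), 374 (DESeq2, 2 groups), 926 (limma-voom), 18 (no filter), 2 (without both mice) and 0 (edgeR on 2 groups, DESeq2 size factors, sex, crystallins left out), and 0 to 6 without 1 mouse. In treated OIR against OIR 0 became 31 (DESeq2), 73 (DESeq2, 2 groups) and 1 (no filter, limma-voom), and stayed 0 without any 1 mouse. 

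Complement genes at the adjusted threshold in OIR against control were 1 of 8 (Cfi) with DESeq2 on 9 mice, DESeq2 or edgeR on 2 groups, limma-voom and without both mice, in fits that called 11.3%, 15.6%, 10.3%, 13.1% and 13.2% of all genes, and 0 to 1 without 1 mouse (0.0% to 12.5% of all genes). In treated OIR against OIR they were 2 with DESeq2 on 2 groups (0.431% of all genes). At an unadjusted p below 0.05, with the share of all genes in the members' direction, OIR against control gave 2 with DESeq2 on 2 groups (11.5%) and limma-voom (15.3%), 3 with edgeR on 2 groups (10.8%) and no filter (7.49%) and 7 without both mice (13.9%), and 0 to 5 without 1 mouse (7.62% to 12.2%). Treated OIR against control, with either direction, gave 1 with DESeq2 (19.5%) and limma-voom (26.3%), 2 with DESeq2 on 2 groups (15.9%) and 4 with no filter (12.3%), and 0 to 3 without 1 mouse (12.8% to 19.8%). Treated OIR against OIR gave 8 with limma-voom (7.53%) and without both mice (5.67%), and 0 to 8 without 1 mouse (1.07% to 4.69%). The C1q level relative to resident microglia genes kept its sign when 1 mouse was left out, at 0.15 to 0.90, −0.78 to −0.0305 and −1.23 to −0.67 in the 3 comparisons (log2).

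Directions turned in OIR against control for C1qa (−0.0618), C1qb (−0.14) and C1qc (−0.12) without control mouse 7 and for C1qb (−0.13) and C1qc (−0.0293) without OIR mouse 6. In treated OIR against control they turned for C4b, C3 and Serping1 with limma-voom (−1.08, −0.66, −0.41), without treated OIR mouse 2 (−1.24, −0.78, −0.60) and without both mice (−1.12, −0.55, −0.29), for C4b with sex as a covariate (−0.10) and without control mouse 7 (−0.25), and for C3ar1 without control mouse 1 (0.39). In treated OIR against OIR they turned for C3 without OIR mouse 6 (0.27), treated OIR mouse 5 (0.0145) or treated OIR mouse 10 (0.0681). Over the fits with mice left out, these values ranged up to 1.30 for C1qa, 1.22 for C1qb and 1.35 for C1qc in OIR against control, up to 0.85 for C4b, 1.58 for C3 and 1.55 for Serping1 and down to −1.81 for C3ar1 in treated OIR against control, and down to −2.26 for C3 in treated OIR against OIR.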
